A study of Mus musculus with 22 samples.

Results

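The 10 genes described here encode the machinery by which cells display peptides on major histocompatibility complex (MHC) class II. They were chosen as a fixed list of names, H2-Aa, H2-Ab1, H2-Eb1, Cd74, H2-DMa, H2-DMb1, H2-DMb2, H2-Oa, H2-Ob and Ciita, among 35596 genes, and all 10 passed the filter on low counts that left 12415 genes for testing. Their levels were read in microglia, the resident macrophages of neural tissue, sorted from retinas of C57BL/6 mice aged 12 weeks. Apoptotic neurons had been injected into the vitreous of every mouse, Apoe-/- and wild type alike, 24 hours before profiling according to the header of the deposited FPKM table. The 4 groups were Apoe-/- phagocytic (6 libraries), Apoe-/- non-phagocytic (6), wild-type phagocytic (5) and wild-type non-phagocytic cells (5), and no uninjected group was analysed here. Cells were sorted as CD11b+, Ly6c- and Fcrls+, and detection of Alexa488 then defined the phagocytic cells. Apoe-/- mice lack apolipoprotein E, a lipid carrier, in all their cells. Each library pooled 5 to 6 retinas of 1 sex and genotype, with 100 to 500 phagocytic cells collected per sample, so a library is a pool and not 1 animal. No label ties a phagocytic to a non-phagocytic sample of the same number, and p-values measure the spread between these pools.

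MHC class II molecules carry peptides from engulfed material to the cell surface, where CD4+ T cells read them. H2-Aa and H2-Ab1 encode the alpha and beta chains of H2-A, and H2-Eb1 encodes the beta chain of H2-E, whose alpha chain gene is a pseudogene in the C57BL/6 haplotype. Cd74, the invariant chain, holds the peptide groove shut and guides new molecules to endosomes. H2-DM, made of H2-DMa with either H2-DMb1 or H2-DMb2, exchanges the remnant of the invariant chain for peptides, and H2-O, made of H2-Oa and H2-Ob, restrains H2-DM. Ciita is the transactivator that turns the set on without binding DNA itself: it works through RFX, CREB-type and NF-Y factors on X1, X2 and Y boxes in the promoters. Resident microglia are known for low levels of these genes in the healthy tissue, while dendritic cells, B cells and activated macrophages are known for high ones.

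Among the 10, 8 genes lay on chromosome 17 of build GRCm38, between the start of H2-Oa at 34092340 and the end of H2-Eb1 at 34316674. H2-DMb2 (chr17:34143307-34151555) and H2-DMb1 (chr17:34153072-34160230) were neighbours on the plus strand. Of the 10 genes, 7 matched a RefSeq promoter of build GRCm38.p6. The stretches around the Y box are shown for the 4 of them whose 60 bases held no annotated exon, because these are the letters through which the Ciita complex is known to work. They are written 5′ to 3′ along the gene, with matches to the searched motifs in capitals:
H2-DMb2: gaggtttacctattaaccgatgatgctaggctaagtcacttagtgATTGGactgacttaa
H2-Ob: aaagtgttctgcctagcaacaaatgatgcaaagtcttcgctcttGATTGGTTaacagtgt
H2-Aa: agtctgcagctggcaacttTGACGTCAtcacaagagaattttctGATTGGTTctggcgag
H2-Eb1: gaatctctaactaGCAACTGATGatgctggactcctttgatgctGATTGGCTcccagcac

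These stretches were chr17:34145114-34145173 for H2-DMb2, chr17:34238803-34238862 for H2-Ob and chr17:34305763-34305822 for H2-Eb1, all on the plus strand, and chr17:34287857-34287916 on the minus strand for H2-Aa. The search covered the 250 bases before each start on both strands for CCAAT (the Y box core, which reads ATTGG on the other strand), GATTGGNT (a longer Y box, which contains the core), the X1 box and TGNNGTCA (X2, which in H2-Aa matched both strands at the same place). The X1 match is the first run of capitals in the H2-Eb1 line, 10 letters of which the motif leaves 3 free. All 7 genes held the Y box core, as did 33.8% of the 32851 promoters in the table. The longer Y box stood in H2-Oa, H2-Ob, H2-Aa and H2-Eb1 and in 6.2% of all promoters. The X1 motif stood in H2-Oa, H2-DMb1 and H2-Eb1 and in 2.5% of all promoters, and the X2 motif in H2-Aa and in 15.6% of all. An X1 motif together with a Y box core occurred in 0.895% of promoters. Its first letter lay 33 bases before that of the Y box core in H2-DMb1, 32 bases in H2-Eb1 and 97 bases in H2-Oa. The windows listed for H2-DMa lay upstream of the start of the transcript that held 96.8% of its reads. A match is a string of letters and was not tested as a site.

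The neighbours H2-DMb1 and H2-DMb2 could be aligned along this stretch without gaps (chr17:34153085-34153144 in H2-DMb1). All 60 bases of the H2-DMb1 stretch lay in an annotated exon of that gene, and 0 of the H2-DMb2 stretch did. The H2-DMb1 stretch is thus upstream of the RefSeq start only. The transcript that held 97.2% of the H2-DMb1 reads starts before it. They differed at 9 of 60 bases. Inside the X1 box of H2-DMb1 the differences from H2-DMb1 to H2-DMb2 were G1T and T6C, counted from 1 at the 5′ end of the box. The first of them falls on a fixed letter of the motif, so the H2-DMb2 letters missed the motif by 1 letter, and the second falls on a position the motif leaves free. Such a near miss is not particular to H2-DMb2: the H2-Ob line above also holds a run of letters that misses the motif by 1 letter.

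The library totals were 1131239 to 3643674 estimated reads. Reads assigned to 12 satellite-like predicted genes made up 9.13% to 51.7% of each library, with the highest shares in Apoe-/- non-phagocytic samples 2 and 5. Apoe itself was at 7.02 to 34.9 CPM in Apoe-/- libraries and 869 to 5140 CPM in wild-type libraries, so each library matched its genotype label. CPM here are counts scaled to library size with TMM factors, which correct for depth and not for gene length. All 12 microglial markers checked were tested genes, and their summed level was 5350 to 22000 CPM, with Csf1r and Cx3cr1 among the most abundant.

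Wild-type non-phagocytic samples 4 and 5 stood apart from all other libraries in the class II genes. The 10 genes summed to 16400 and 9700 CPM there, against 772 to 5690 CPM in the other 20 libraries. H2-Aa, H2-Ab1, H2-Eb1, Cd74, H2-DMb1, H2-DMb2 and Ciita were each above every one of the 20 others in both samples, whereas H2-DMa (518 and 329 CPM, others up to 380 CPM), H2-Oa (17.3 and 22.5 CPM, others up to 22.1 CPM) and H2-Ob (27.6 and 30.3 CPM, others up to 32.4 CPM) were not. Markers of dendritic cells, 16 genes summed, were at 912 and 916 CPM in these samples and at 131 to 568 CPM in the others, and the 12 microglial markers at 5660 and 10200 CPM, against 5350 to 22000 CPM. The part of either in the class II levels was not tested. For the 10 class II genes, fold changes that include wild-type non-phagocytic cells are therefore also given without these samples, singly or as a range. The samples were picked after these values were seen. Leaving them out thus lowers the wild-type non-phagocytic class II levels by the choice itself. Those of other genes and of gene lists, and the shares of the Cd74 forms, include them. In sorted pools, fewer cells of a type and less RNA per cell cannot be told apart.

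**Figure D1:**
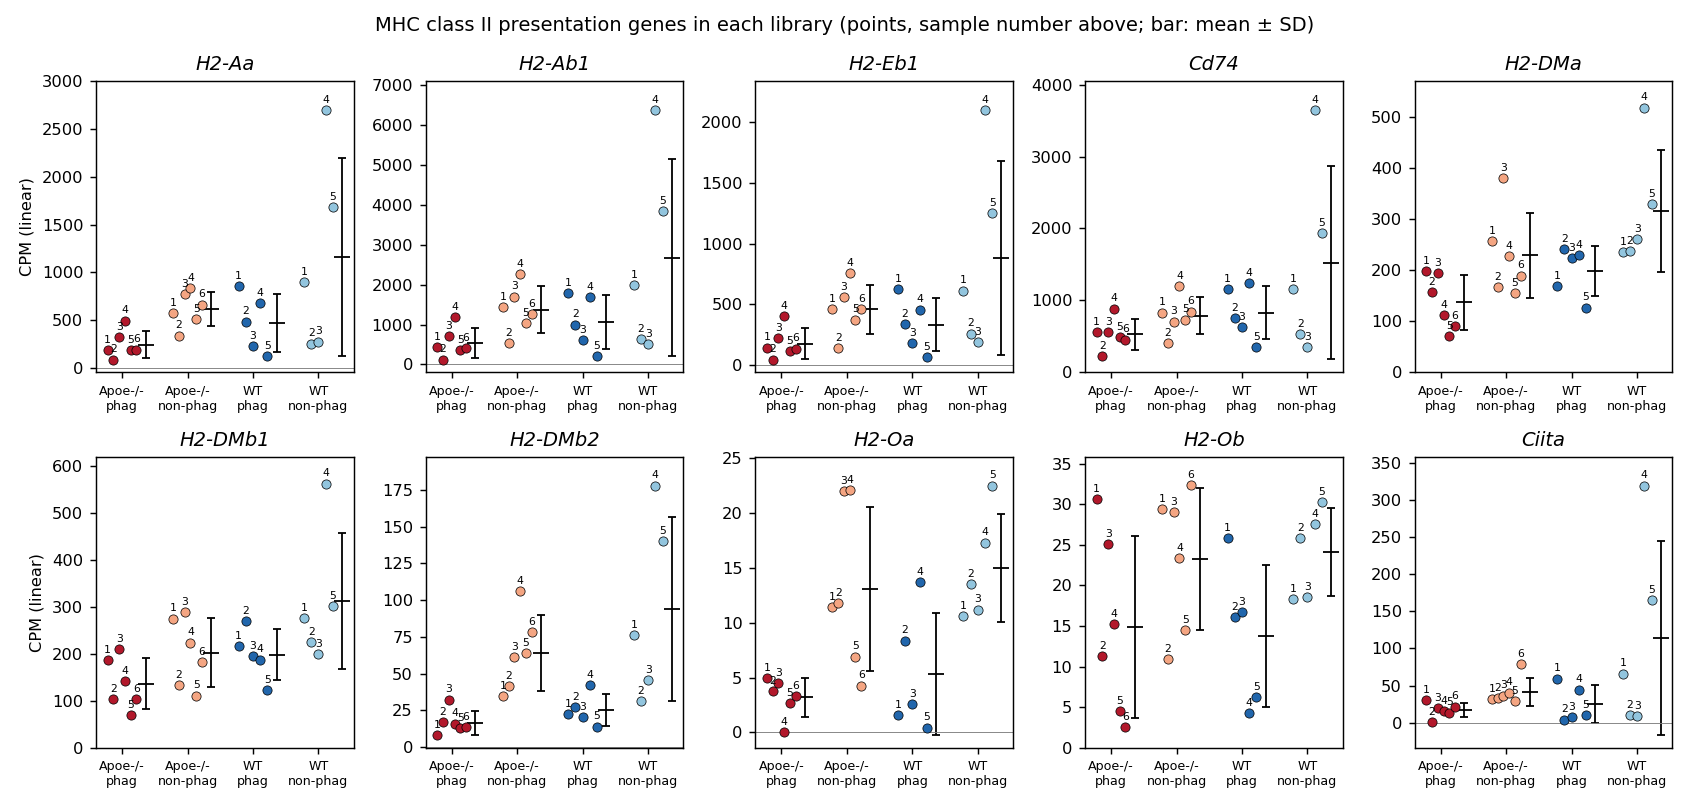
Level of each of the 10 MHC class II genes (CPM, linear axes that differ between panels) in the 22 libraries; points are libraries with their sample number, and bars are group mean ± SD (n = 6, 6, 5 and 5). Wild-type non-phagocytic samples 4 and 5 are the highest points for H2-Aa, H2-Ab1, H2-Eb1 and Cd74, and H2-DMb2 is at most 32.3 CPM in every Apoe-/- phagocytic library.

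Scaled for transcript length, H2-Ab1 had the highest mean in each of the 4 groups. These TPM values carry no TMM factors, so they rank genes within a group better than they compare groups. In Apoe-/- non-phagocytic samples 2 and 5, the richest in satellite-like reads, H2-Ab1 was at 222 and 501 TPM, against 540 and 1040 CPM. In Apoe-/- phagocytic cells H2-Ab1 averaged 476 ± 369 TPM, Cd74 429 ± 227 TPM, H2-Aa 228 ± 159 TPM and H2-Eb1 182 ± 148 TPM (SD, n = 6). H2-DMa followed at 126 ± 64.4 TPM and H2-DMb1 at 95.6 ± 54.4 TPM, while H2-DMb2 was at 11.2 ± 7.81 TPM, H2-Ob at 10.5 ± 9.74 TPM, Ciita at 3.04 ± 1.86 TPM and H2-Oa at 2.88 ± 1.88 TPM. In Apoe-/- non-phagocytic cells H2-Ab1 averaged 1220 ± 779, Cd74 643 ± 371, H2-Aa 551 ± 295 and H2-Eb1 461 ± 294 TPM, with Ciita at 8.16 ± 6.12 TPM. In wild-type phagocytic cells the same genes averaged 977 ± 600, 715 ± 302, 460 ± 284 and 360 ± 232 TPM, with Ciita at 5.6 ± 4.88 TPM. In wild-type non-phagocytic cells the order likewise began with H2-Ab1 at 2240 ± 1840 TPM, Cd74 at 1230 ± 956 TPM, H2-Aa at 1010 ± 796 TPM and H2-Eb1 at 848 ± 690 TPM (SD, n = 5). The editors H2-DMa and H2-DMb1 were at 318 ± 87.6 and 243 ± 70.2 TPM there, H2-DMb2 at 64.9 ± 33.9 TPM, and Ciita, H2-Oa and H2-Ob at 19.5 ± 19.8, 15.5 ± 4.71 and 14 ± 5.64 TPM. Neighbours within the first 4, within H2-DMa and H2-DMb1, and within the last 3 differed by less than the larger of their SDs in that group. In CPM, the mean of every member was highest in wild-type non-phagocytic cells, and 9 of the 10 had their lowest mean in Apoe-/- phagocytic cells, H2-Ob having it in wild-type phagocytic cells. The TPM of H2-Eb1 rests on transcript assignment: 67.7% of its reads went to a transcript annotated as a target of nonsense-mediated decay and 13.5% to protein-coding ones.

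Phagocytic and non-phagocytic cells were compared first, which asks how the class II genes stood in cells that had taken up labelled dead neurons. All 10 genes had a lower mean in phagocytic than in non-phagocytic cells of both genotypes, and 1 of these differences passed the test, that of H2-DMb2 in Apoe-/- cells (edgeR quasi-likelihood test, Benjamini-Hochberg adjustment over 12415 genes, threshold 0.05). Over all tested genes, 0.0644% were called lower in Apoe-/- phagocytic cells and 0.467% in either direction, and 52.3% had a log2 fold change below 0 (50.8% in wild-type cells). In wild-type cells no class II gene was called, beside 0.0161% of all genes called lower and 0.209% called in either direction, and none had phagocytic libraries all below the non-phagocytic ones, beside 0.636% of all genes. The median log2 fold change of the 10 genes was -1.3 in Apoe-/- cells and -1.31 in wild-type cells, beside -0.02 and -0.01 over all tested genes. At an unadjusted p under 0.05, 6 of the 10 were lower in Apoe-/- and 8 of the 10 in wild-type phagocytic cells, beside 4.45% and 3.14% of all genes. Without wild-type non-phagocytic samples 4 and 5 the wild-type median was -0.18, beside 0.04 over all genes, 7 of the 10 values were below 0, and 1 of the 10 was lower at an unadjusted p under 0.05, beside 3.31% of all genes. An alternative fit with the sample number as a block called 4 of the 10 lower in Apoe-/- cells, beside 255 calls over all tested genes. In wild-type cells it called H2-DMb2 alone of the 10, beside 135 calls over all tested genes. As no label pairs the numbers, values in the text come from the fit without a block.

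**Figure D2:**
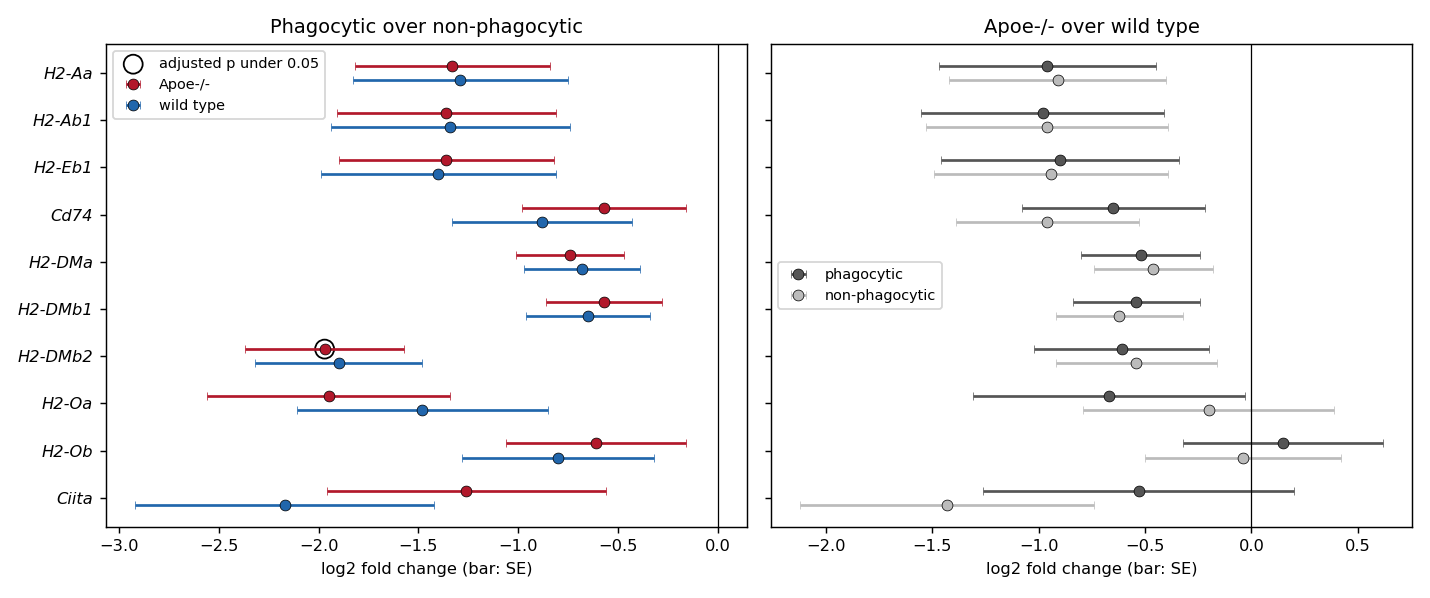
Log2 fold change (edgeR estimate, bar ± SE) of the 10 class II genes, phagocytic over non-phagocytic cells in each genotype (left) and Apoe-/- over wild-type cells in each sort (right). All 20 values of the left panel are below 0, and the ringed point, H2-DMb2 in Apoe-/- cells, is the only one with an adjusted p under 0.05.

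H2-DMb2, one of the paired genes for the beta chain of the peptide editor H2-DM, fell in Apoe-/- phagocytic cells. It was at 7.98, 16.7, 32.3, 15.9, 12.6 and 13.4 CPM in Apoe-/- phagocytic samples 1 to 6, against 34.8, 41.2, 61, 106, 64.2 and 78.5 CPM in Apoe-/- non-phagocytic samples 1 to 6. Every phagocytic library was below every non-phagocytic one, a separation in this direction that 0.346% of all tested genes had. The means were 16.5 ± 8.34 and 64.3 ± 26 CPM (SD, n = 6 each), a log2 fold change of -1.97 ± 0.4 (SE; edgeR adjusted p = 0.0205). These levels rest on 14 to 58 estimated reads a library in phagocytic and 49 to 257 in non-phagocytic cells. When each library was left out in turn the call was kept in 8 of 12 fits, with adjusted p from 0.00816 to 0.0611. It was lost without Apoe-/- phagocytic sample 1, 5 or 6 or non-phagocytic sample 4.

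In wild-type cells H2-DMb2 was at 22.3, 27.3, 20.2, 42.4 and 13.8 CPM in phagocytic samples, against 76.1, 31, 45.5, 178 and 140 CPM in non-phagocytic samples. Phagocytic sample 4 was above non-phagocytic sample 2, so the groups overlapped. The log2 fold change was -1.9 ± 0.42 with an edgeR adjusted p of 0.0518, just above the threshold. Leaving out 1 library gave an adjusted p from 0.0252 to 0.177 and a call in 3 of 10 fits. Without the non-phagocytic samples 4 and 5 together it was -1 (adjusted p = 0.39).

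The reads of H2-DMb1 and H2-DMb2 were divided by the authors' estimate. The coding sequences of their main transcripts are 783 bases each and were identical at 751 of them (95.9%), and 37.6% of the 31-base words of the H2-DMb1 transcript also occur in that of H2-DMb2. The share of H2-DMb2 among the reads of both genes was 4.05% to 15.3% in Apoe-/- phagocytic cells (median 12.3%), against 11.2% to 36.5% in Apoe-/- non-phagocytic cells (median 26.9%). It was 9.28%, 9.17%, 9.33%, 18.4% and 10.1% in wild-type phagocytic cells, against 21.7%, 12.1%, 18.6%, 24% and 31.7% in wild-type non-phagocytic cells. Shares were thus mostly higher in non-phagocytic libraries, with overlap in both genotypes. Summed as 1 gene, the pair had a log2 fold change of -0.81 in Apoe-/- cells and was not called (edgeR adjusted p = 0.262).

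**Figure D3:**
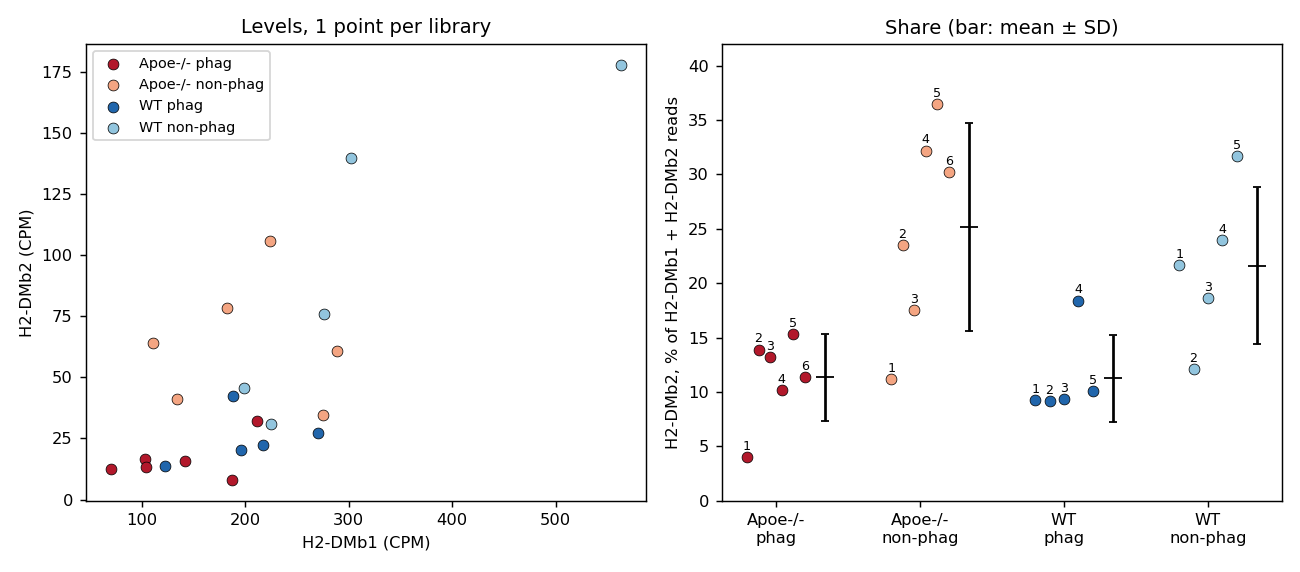
Left, level of H2-DMb2 against H2-DMb1 (CPM, linear axes), 1 point per library; right, H2-DMb2 as a percentage of the reads of both genes, with sample numbers and group mean ± SD. The share is 4.05% to 15.3% in Apoe-/- phagocytic and 11.2% to 36.5% in Apoe-/- non-phagocytic libraries, so the groups overlap in share although they do not overlap in CPM of H2-DMb2.

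H2-DMb1 itself differed less and was not called. It was at 187, 103, 211, 142, 70.3 and 104 CPM in Apoe-/- phagocytic samples, against 275, 134, 289, 224, 111 and 182 CPM in Apoe-/- non-phagocytic samples, with a log2 fold change of -0.57 ± 0.29 (edgeR adjusted p = 0.525). In wild-type cells it was at 217, 270, 196, 188 and 122 CPM in phagocytic samples, against 276, 225, 199, 563 and 302 CPM in non-phagocytic samples (-0.65 ± 0.31, edgeR adjusted p = 0.637). H2-DMa, which pairs with either beta chain, had a lowest, median and highest level of 70.3, 133 and 198 CPM in Apoe-/- phagocytic cells, against 155, 208 and 380 CPM in Apoe-/- non-phagocytic cells. Its log2 fold change was -0.74 ± 0.27 there (edgeR adjusted p = 0.304) and -0.68 ± 0.29 in wild-type cells (adjusted p = 0.581). Without wild-type non-phagocytic samples 4 and 5 the wild-type value was -0.3 for H2-DMa and -0.23 for H2-DMb1.

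The chains that present the peptide showed the same direction with a wide spread. H2-Ab1, the beta chain of H2-A, had a lowest, median and highest level of 122, 415 and 1180 CPM in Apoe-/- phagocytic cells, against 540, 1350 and 2260 CPM in Apoe-/- non-phagocytic cells. The overlap came from phagocytic samples 3 and 4, at 719 and 1180 CPM, and non-phagocytic samples 2 and 5, at 540 and 1040 CPM, which are the libraries richest in satellite repeats. The log2 fold change was -1.36 ± 0.55 (edgeR adjusted p = 0.383), with a 95% interval by normal approximation of -2.44 to -0.28. In wild-type cells H2-Ab1 was at 1780, 1000, 606, 1690 and 208 CPM in phagocytic samples, against 1990, 629, 512, 6380 and 3850 CPM in non-phagocytic samples. Non-phagocytic samples 4 and 5 were far above the rest. The log2 fold change was -1.34 ± 0.6 with them (edgeR adjusted p = 0.599) and 0.02 without them.

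H2-Aa, the alpha chain of H2-A, followed H2-Ab1 library by library. It was at 185, 88, 324, 496, 187 and 191 CPM in Apoe-/- phagocytic samples, against 577, 339, 770, 837, 509 and 664 CPM in Apoe-/- non-phagocytic samples. Phagocytic sample 4 alone lay above a non-phagocytic library, sample 2, and the log2 fold change was -1.33 ± 0.49 (edgeR adjusted p = 0.321). H2-Eb1 gave -1.36 ± 0.54 in Apoe-/- cells (edgeR adjusted p = 0.372), with means of 179 ± 124 and 459 ± 203 CPM (SD, n = 6 each). In wild-type cells H2-Aa averaged 475 ± 303 and 1160 ± 1040 CPM and H2-Eb1 333 ± 220 and 883 ± 800 CPM in phagocytic and non-phagocytic cells (SD, n = 5 each). Their wild-type log2 fold changes of -1.29 ± 0.54 and -1.4 ± 0.59 (edgeR adjusted p = 0.552 for each) were 0 and -0.09 without non-phagocytic samples 4 and 5.

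Cd74, the invariant chain, had the smallest difference of the 4 most abundant genes. It was at 559, 223, 551, 883, 489 and 451 CPM in Apoe-/- phagocytic samples, against 828, 398, 703, 1200, 730 and 840 CPM in Apoe-/- non-phagocytic samples, with a log2 fold change of -0.57 ± 0.41 (edgeR adjusted p = 0.724). In wild-type cells it was at 1160, 753, 624, 1240 and 352 CPM in phagocytic samples, against 1160, 528, 352, 3650 and 1930 CPM in non-phagocytic samples (-0.88 ± 0.45, edgeR adjusted p = 0.676). Without non-phagocytic samples 4 and 5 the wild-type value changed sign, to 0.29.

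Cd74 (chr18:60803848-60812652) has a long coding form of 279 codons and a short one of 215, set apart by an exon of 192 bases at chr18:60811294-60811485. The long form took 17.7% ± 3.42 of the reads of both in Apoe-/- phagocytic cells, against 13.7% ± 3.74 in Apoe-/- non-phagocytic cells (SD, n = 6 each), a difference of 4 percentage points. In wild-type cells it took 19.4% ± 2.21 in phagocytic, against 17.1% ± 1.62 in non-phagocytic cells (SD, n = 5 each). Neither difference passed a two-sided exact permutation test (p = 0.0823 and 0.0873, adjusted p = 0.116 for both over 4 comparisons; smallest possible p 0.00216 and 0.00794). The lowest share, 6.98%, was in Apoe-/- non-phagocytic sample 2.

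H2-Oa and H2-Ob, the restraint on H2-DM, were the class II chains with the lowest mean TPM in each group. H2-Oa was at 4.96, 3.78, 4.46, 0, 2.7 and 3.34 CPM in Apoe-/- phagocytic samples, against 11.4, 11.8, 22, 22.1, 6.92 and 4.27 CPM in Apoe-/- non-phagocytic samples. These are 0 to 18 estimated reads a library in phagocytic cells, and the overlap was at non-phagocytic sample 6 and phagocytic samples 1 and 3. The log2 fold change was -1.95 ± 0.61 (edgeR adjusted p = 0.198) in Apoe-/- and -1.48 ± 0.63 in wild-type cells (adjusted p = 0.572). In wild-type cells H2-Oa was at 1.56, 8.36, 2.57, 13.7 and 0.444 CPM in phagocytic samples, against 10.6, 13.5, 11.2, 17.3 and 22.5 CPM in non-phagocytic samples, and phagocytic sample 4 alone reached the non-phagocytic range. H2-Ob had a lowest, median and highest level of 2.51, 13.2 and 30.6 CPM in Apoe-/- phagocytic cells, against 10.9, 26.2 and 32.4 CPM in Apoe-/- non-phagocytic cells. Its phagocytic libraries covered nearly the whole range of the non-phagocytic ones, and neither genotype gave a call (-0.61 ± 0.45 in Apoe-/- and -0.8 ± 0.48 in wild-type cells, edgeR adjusted p = 0.733 and 0.759). Without wild-type non-phagocytic samples 4 and 5 the wild-type value was -1.13 for H2-Oa and -0.6 for H2-Ob.

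Relative to their target, H2-Oa and H2-Ob summed were 0.122 ± 0.0414 of the CPM of H2-DMa in Apoe-/- phagocytic, against 0.16 ± 0.03 in Apoe-/- non-phagocytic cells. In wild-type cells the ratio was 0.096 ± 0.0403 in phagocytic, against 0.13 ± 0.0329 in non-phagocytic cells. These ratios are descriptions on the CPM scale, not corrected for length, and differed by about the spread between libraries.

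Ciita, the transactivator (chr16:10480059-10528418), was at 30.8, 1.08, 20, 15.9, 13.5 and 21.7 CPM in Apoe-/- phagocytic samples, against 31.6, 32.8, 36.5, 40.6, 29.6 and 79.1 CPM in Apoe-/- non-phagocytic samples. Only phagocytic sample 1 reached the non-phagocytic range, and the log2 fold change was -1.26 ± 0.7 (edgeR adjusted p = 0.584). In wild-type cells Ciita was at 59.3, 4.18, 7.72, 44.5 and 10.7 CPM in phagocytic samples, against 66.2, 10.8, 9.32, 319 and 165 CPM in non-phagocytic samples. Non-phagocytic samples 2 and 3 were as low as phagocytic samples 3 and 5. The wild-type log2 fold change of -2.17 ± 0.75 (edgeR adjusted p = 0.381) was -0.14 without non-phagocytic samples 4 and 5. Reads of Ciita were assigned to 3 clusters of transcript starts, with 71% on the middle one (chr16:10488178-10488279), 24.8% on the first and 4.16% on the last, and the middle one held 70% to 74.4% in each group.

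Apoe-/- and wild-type cells of the same sort were compared next, which asks whether loss of Apoe went with the level of class II genes. In phagocytic cells 9 of the 10 genes had a lower mean in Apoe-/- libraries, H2-Ob being the exception, beside 50.5% of all tested genes with a log2 fold change below 0. None was called, beside 0.0322% of all genes in either direction and 0.0242% lower (edgeR, 0 of the 10 at an unadjusted p under 0.05, beside 4.19% of all genes lower). H2-Ab1 averaged 535 ± 367 CPM in Apoe-/- phagocytic cells (n = 6), against 1060 ± 680 CPM in wild-type phagocytic cells (n = 5), a log2 fold change of -0.98 ± 0.57 (edgeR adjusted p = 0.798). Its 95% interval of -2.09 to 0.13 leaves room for a large decrease and for none. H2-Aa (-0.96 ± 0.51), H2-Eb1 (-0.9 ± 0.56) and Cd74 (-0.65 ± 0.43) were alike in size, the editors H2-DMa, H2-DMb1 and H2-DMb2 lay at -0.52, -0.54 and -0.61, and H2-Oa, H2-Ob and Ciita at -0.67, 0.15 and -0.53. Adjusted p by edgeR ran from 0.798 to 0.969.

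In non-phagocytic cells all 10 means were lower in Apoe-/- libraries, beside 50.3% of all log2 fold changes below 0, and none was called, beside 0.0161% of all tested genes in either direction. By edgeR, 3 of the 10, Cd74, H2-DMb1 and Ciita, had an unadjusted p under 0.05, beside 2.02% of all genes lower, and every adjusted p was 0.999. H2-Ab1 averaged 1370 ± 584 CPM in Apoe-/- non-phagocytic cells, against 2670 ± 2470 CPM in wild-type non-phagocytic cells, and Ciita 41.7 ± 18.7 against 114 ± 131 CPM. For 8 of the 10 genes the direction turned without wild-type samples 4 and 5. Without them the log2 fold change of H2-Ab1 was 0.4 instead of -0.96 ± 0.57, that of Ciita 0.59 instead of -1.43 ± 0.69, and that of Cd74 0.2 instead of -0.96 ± 0.43. H2-DMa (-0.1) and H2-DMb1 (-0.2) were then the 2 genes still below 0.

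Whether the sort effect itself differed by genotype was tested as an interaction. No class II gene was called, beside 0% of all tested genes, and none of the 10 had an unadjusted p under 0.05, beside 1.3% of all genes lower (edgeR, every adjusted p 1). Of the 10 values 5 were below 0, beside 51.5% of all genes. The differences ran from -0.47 ± 0.86 for H2-Oa to 0.9 ± 1.01 for Ciita. For H2-DMb2 the difference was -0.07 ± 0.56, with a 95% interval of -1.17 to 1.02. The call in Apoe-/- cells and the missed call in wild-type cells are therefore not shown to differ. Without wild-type non-phagocytic samples 4 and 5 all 10 differences were below 0, with a median of -0.92 beside -0.05 over all genes, and none was called (adjusted p = 1). They then ran from -1.38 for H2-Ab1 to -0.01 for H2-Ob, with -1.12 for Ciita and -0.97 for H2-DMb2. Samples 4 and 5 were picked for their high class II levels. Leaving them out lowers these differences by the choice itself, so no conclusion is drawn from the shift.

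Among 5 lists of other genes of the pathway, 2 genes rose in Apoe-/- phagocytic cells and none fell, beside 0.403% of all tested genes called higher, and none was called in wild-type cells, beside 0.193% called higher. Of 10 listed genes that process the invariant chain and antigen, 9 were tested. In Apoe-/- phagocytic cells 1 rose, 0 fell and 8 did not pass, with 8 of 9 values above 0 and a median log2 fold change of 0.57. Ctsb, the lysosomal protease cathepsin B, averaged 3630 CPM in Apoe-/- phagocytic, against 1520 CPM in Apoe-/- non-phagocytic cells (1.25 ± 0.22, edgeR adjusted p = 0.00624). In wild-type cells it averaged 3190 and 1610 CPM in phagocytic and non-phagocytic cells and was not called (0.99 ± 0.24, edgeR adjusted p = 0.0829), like the other 8 genes of the list there. Ctss, the cathepsin known to complete cleavage of the invariant chain in many antigen-presenting cells, averaged 3160 CPM in Apoe-/- phagocytic, against 3220 CPM in Apoe-/- non-phagocytic cells (-0.02 ± 0.22, edgeR adjusted p = 0.989). Ctsd, cathepsin D, averaged 4200 and 2340 CPM in Apoe-/- phagocytic and non-phagocytic cells and was not called (0.85 ± 0.25, adjusted p = 0.159).

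Of 7 listed genes that move class II molecules through endosomes, 1 rose in Apoe-/- phagocytic cells and none was called in wild-type cells. The gene was Cd63, a tetraspanin of late endosomes, at a mean of 623 CPM in Apoe-/- phagocytic, against 326 CPM in Apoe-/- non-phagocytic cells (0.93 ± 0.2, edgeR adjusted p = 0.0245). In wild-type cells Cd63 averaged 562 and 345 CPM in phagocytic and non-phagocytic cells (0.7 ± 0.22, adjusted p = 0.272). Arl8b, a GTPase of lysosome movement, and Cd37, a leukocyte tetraspanin, were not called in either genotype. The median log2 fold change of the list was 0.02 in Apoe-/- and 0.26 in wild-type cells.

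The factors upstream of the class II genes were not called in any comparison. Of 7 listed factors that bind X1, X2 and Y boxes, 6 were tested, with a median log2 fold change between the sorts of -0.35 in Apoe-/- and -0.04 in wild-type cells. Nfyc, an NF-Y subunit, averaged 40.4 CPM in Apoe-/- phagocytic, against 35.7 CPM in Apoe-/- non-phagocytic cells, and Rfxank, an RFX subunit, 30.9 CPM in wild-type phagocytic, against 19.7 CPM in wild-type non-phagocytic cells. Creb1 was at 35.8 and 36.6 CPM in Apoe-/- phagocytic and non-phagocytic cells. Of 12 genes known to act upstream of Ciita, among them the interferon-gamma route, all were tested and none passed, with medians of -0.07 and -0.01, and Irf8 (249 against 308 CPM in Apoe-/- cells), Ifngr1 (233 against 302 CPM) and Ifngr2 (211 against 183 CPM) were the most abundant. Irf4, a lymphoid and dendritic cell factor of this list that was singled out after its values were seen, averaged 1.88 CPM in Apoe-/- phagocytic, against 7.98 CPM in Apoe-/- non-phagocytic cells without overlap (-1.97 ± 0.77, edgeR adjusted p = 0.357). A separation in this direction was found for 0.346% of all tested genes, and Irf4 was near the floor, at 0 to 3.9 CPM in Apoe-/- phagocytic libraries. In wild-type cells Irf4 averaged 3.55 CPM in phagocytic, against 12.8 CPM in non-phagocytic cells (-1.83 ± 0.79, edgeR adjusted p = 0.581). Of 9 costimulatory genes none passed either (medians 0.14 and 0.13), with Cd83, Cd86 and Cd48 the most abundant. H2-Eb2 and H2-Ea-ps, the other class II genes looked at, summed to at most 6.06 CPM in a library and were not tested.

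Markers of other cells were read beside the class II genes, since the gate could hold cells other than microglia. Of the 16 dendritic cell markers, 13 were tested, and the list had a median log2 fold change of -1.01 in Apoe-/- and -1.48 in wild-type phagocytic cells. The wild-type median includes non-phagocytic samples 4 and 5, whose marker sums were 912 and 916 CPM. Their sum was 131 to 568 CPM in Apoe-/- phagocytic (median 413), against 218 to 452 CPM in Apoe-/- non-phagocytic libraries (median 322). It was 210 to 495 CPM in wild-type phagocytic (median 248), against 228 to 916 CPM in wild-type non-phagocytic libraries (median 320). The sums of the sorts overlapped in both genotypes, and Fscn1, Ccl22 and Ccl17 were the most abundant of the list. In Apoe-/- phagocytic cells Fscn1 (0.48) and Ccl22 (1.58) had log2 fold changes above 0 and Ccl17 (-1.03) below 0. In wild-type phagocytic cells they were 0.37, -0.14 and -2.04, in the same order, and none was called. The 1 gene of the list that fell was Btla, an inhibitory receptor of lymphocytes and dendritic cells, beside 0.0161% of all tested genes called lower in wild-type cells. It was at 0 CPM in all 5 wild-type phagocytic libraries, against 7.05, 8.97, 3.73, 12.5 and 15.6 CPM in wild-type non-phagocytic libraries (edgeR adjusted p = 0.043). Cd7, too, had no reads in wild-type phagocytic cells, and in the other groups no marker of the list was at 0 throughout. In Apoe-/- cells Btla averaged 1.17 CPM in phagocytic, against 4.04 CPM in non-phagocytic cells, with overlap, and was not called (edgeR adjusted p = 0.586). The part of these cells in the class II values was not tested.

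Border macrophage markers, 12 in number, had higher sums in every phagocytic than in every non-phagocytic library of the same genotype, and their part in the class II values was not tested. They summed to 462 to 1090 CPM in Apoe-/- phagocytic, against 225 to 365 CPM in Apoe-/- non-phagocytic libraries, and to 591 to 1090 CPM in wild-type phagocytic, against 276 to 393 CPM in wild-type non-phagocytic libraries. Of 10 tested, 4 rose in Apoe-/- phagocytic cells (Pf4, F13a1, Ccl24 and Stab1) and 3 in wild-type phagocytic cells (Pf4, Ccl24 and F13a1), beside 0.403% and 0.193% of all tested genes called higher, and Cd209f had no reads in wild-type cells. Clec10a went the other way without a call, at 5.95 CPM in Apoe-/- phagocytic, against 16.5 CPM in Apoe-/- non-phagocytic cells, and 8.32 against 37.4 CPM in wild-type cells. Monocyte markers summed to 3340 CPM in wild-type non-phagocytic sample 4 and to 3390 CPM in wild-type phagocytic sample 4, the 2 highest values of the series, with Fn1, Ccr2 and S100a4 the most abundant and none called. By genotype, their sum was 432 to 1270 CPM in Apoe-/- phagocytic, against 1100 to 3390 CPM in wild-type phagocytic libraries. In non-phagocytic libraries it was 508 to 1310 CPM in Apoe-/- and 638 to 3340 CPM in wild type. The part of monocytes in the class II values was not tested. B cell markers summed to at most 40.9 CPM, with Cd79b, Bank1 and Ms4a1 the most abundant, and T cell markers, led by Cd3d, Cd8a and Lck, to at most 37.6 CPM. Photoreceptor markers, with Gnat1 and Sag among the most abundant, summed to 1090 to 8110 CPM and none was called.

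**Figure D4:**
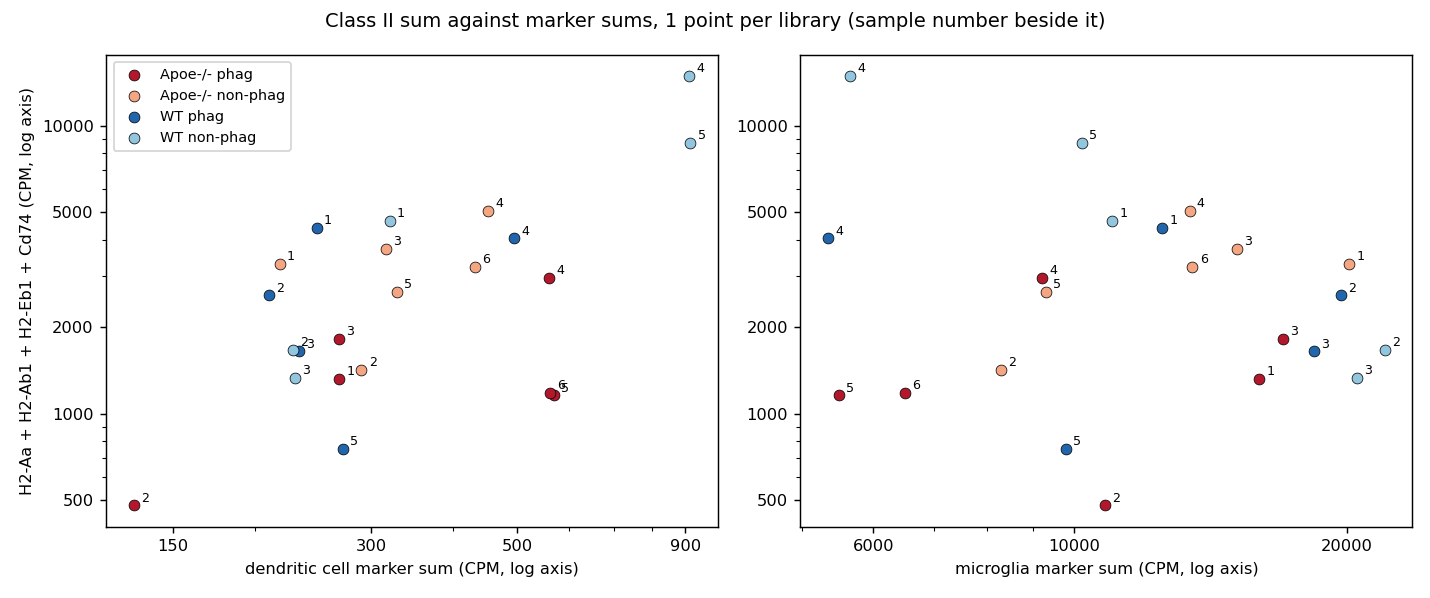
Summed level of H2-Aa, H2-Ab1, H2-Eb1 and Cd74 against the summed level of 16 dendritic cell markers (left) and 12 microglial markers (right), in CPM on log axes, 1 point per library with its sample number. Wild-type non-phagocytic samples 4 and 5 lie at the top of both panels, with dendritic marker sums of 912 and 916 CPM, while the other 20 libraries lie between 131 and 568 CPM.

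Beyond the group means, the class II genes varied together from library to library. With group means removed, log2 CPM over the 22 libraries gave Pearson's r of 0.95 to 0.99 between any pair of H2-Aa, H2-Ab1, H2-Eb1 and Cd74. Against the mean of these 4, Ciita had an r of 0.79, H2-DMb2 0.71, H2-DMb1 0.66, H2-DMa 0.42, H2-Ob 0.32 and H2-Oa 0.2. H2-DMa and H2-DMb1 were closer to each other, at 0.87, than either was to the presenting chains. Without wild-type non-phagocytic samples 4 and 5 the r was 0.67 for Ciita, 0.55 for H2-DMb2, 0.57 for H2-DMb1, 0.23 for H2-DMa, 0.3 for H2-Ob and 0.12 for H2-Oa (20 libraries). These are descriptions over libraries that share a sort, a depth and a mix of cells, and the low counts of H2-Oa and H2-Ob limit what their values can show.

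The 10 other genes most like the presenting chains by this measure were Plbd1 (r = 0.89), Cd209a, Cfp and Lsp1 (0.83 each), Clec10a and Cbfa2t3 (0.81 each), Runx3 (0.79), Cytip and 4930523C07Rik (0.76 each) and Ms4a4c (0.75). The middle 90% of all other tested genes lay between -0.39 and 0.45, and these 10 lie above it because they were picked for the highest r. Without the 2 samples that stood apart, these 10 had values of 0.58 to 0.82. The libraries left were among those used to pick them, so this is no independent check. Cd209a and Clec10a, both lectins, were also on the dendritic cell list, Clec10a on that of border macrophages too, and Ms4a4c on that of monocytes. Cd209a was at 0 to 54.6 CPM in Apoe-/- phagocytic, against 11.8 to 61.1 CPM in Apoe-/- non-phagocytic libraries. In wild-type cells it was at 49.2, 0.322, 0.429, 17.5 and 0.444 CPM in phagocytic, against 64.8, 0.374, 3.73, 215 and 121 CPM in non-phagocytic samples, so it was below 0.5 CPM in 4 wild-type libraries that still held H2-Ab1 at 208 to 1000 CPM. Cfp, which encodes the complement regulator properdin, had a mean on the other side: it averaged 85.6 CPM in Apoe-/- phagocytic, against 65.2 CPM in Apoe-/- non-phagocytic cells, and 171 against 150 CPM in wild-type cells. None of the 10 was called in any of the 5 comparisons.

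**Figure D5:**
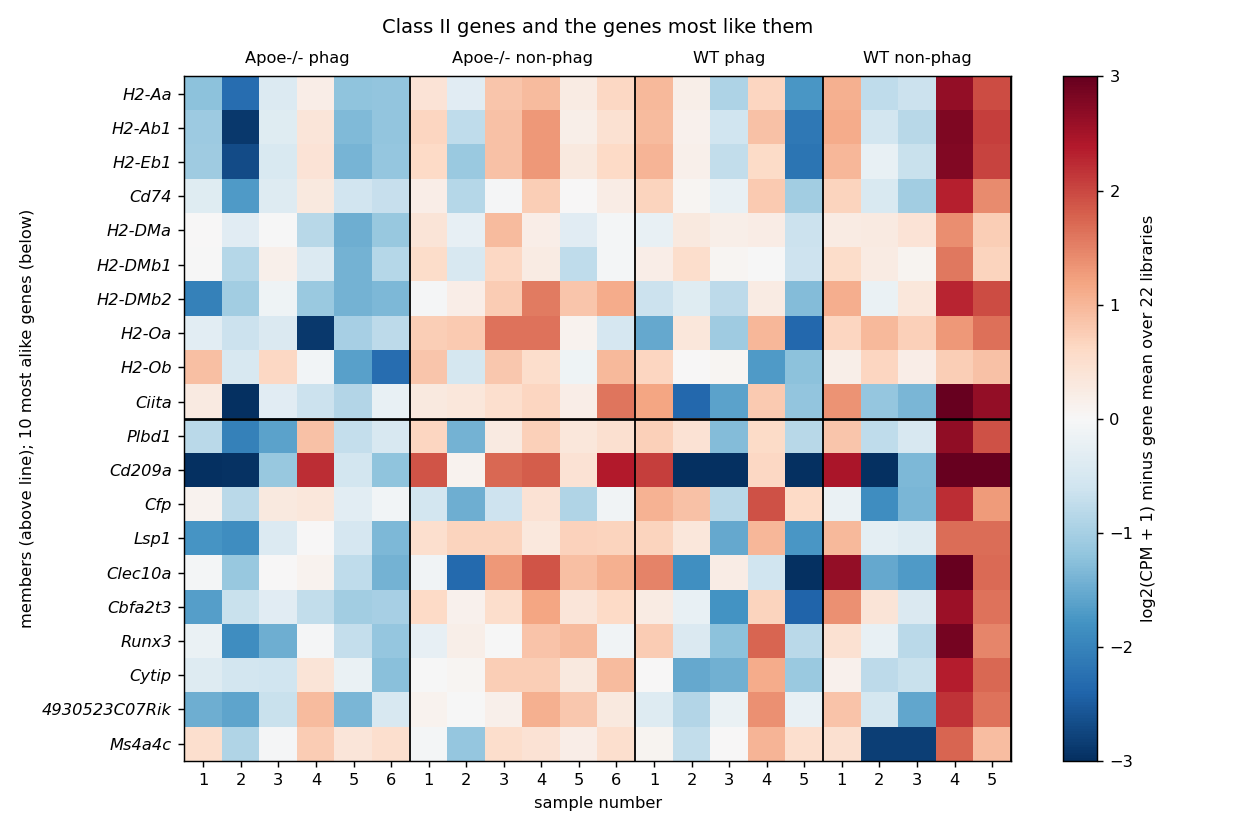
Log2(CPM + 1) minus each gene's mean over the 22 libraries (colour, with values beyond ± 3 drawn at the end of the scale) for the 10 class II genes and the 10 genes most like the presenting chains; columns are libraries by group and sample number. The columns of wild-type non-phagocytic samples 4 and 5 are high in nearly every row, and those of Apoe-/- phagocytic sample 2 and wild-type phagocytic sample 5 are low in the rows of H2-Aa, H2-Ab1, H2-Eb1 and Cd74.

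The presenting chains varied against the editors as well. H2-Ab1 was 0.785 to 10.6 times the CPM of H2-DMa in Apoe-/- phagocytic (median 4.1), against 3.25 to 9.93 times in Apoe-/- non-phagocytic libraries (median 6.16). In wild-type cells it was 10.5, 4.16, 2.72, 7.37 and 1.66 times in phagocytic, against 8.47, 2.65, 1.97, 12.3 and 11.7 times in non-phagocytic samples. The ranges overlapped in both genotypes.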

How the data were processed

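The members and the gene lists were chosen with earlier results of these data known. The header of the deposited table names SMART-Seq2. The authors' files hold, per the file headers, an expected count of reads and a TPM value for each transcript of a library. The authors made FPKM values per gene and kept genes above an FPKM of 5 before they deposited the table, per the file headers; it served alternatives only. Salmon 1.4.0, R 4.0.3, DESeq2 1.30.1 and mm10 are named, without roles, per the submitters' processing notes. The transcript annotation, trimming and strand setting were not given in the sources used here, and the labels give no batch.

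Transcripts were matched to GENCODE M21 (build GRCm38): 116072 of 116248 matched, and the other 176, with 0.118% to 0.262% of a library's reads, stayed out. Expected counts were summed per gene and rounded. edgeR 4.0.16 (R 4.3.3; TMM, filterByExpr, quasi-likelihood, 1 fit over 22 libraries in 4 groups, no covariate) gave 5 comparisons, with Benjamini-Hochberg adjustment over all 12415 tested genes; the common biological coefficient of variation was 0.426. Fold changes are log2, estimate ± SE. The fit was tested on simulated counts. Without molecular identifiers, PCR copies are not separate molecules, and precision is given by the spread between libraries. Alternatives used DESeq2 1.42.0 and limma 3.58.1. Of the lists, genes past the threshold and the 3 most abundant are named, except a few markers not reported here; alike genes are the 10 with the highest r. Promoters are RefSeq's.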

Additional observations from a re-analysis of the deposited data

Results flagged for a closer look

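In 3 of 44 sets of values checked (a class II gene, or the share of the long Cd74 form, in a group), 1 library lay apart from the others of its group by Dixon's criterion, which chance meets in about 1 of 20. H2-DMb1 was at 563 CPM in wild-type non-phagocytic sample 4, and the next library of the group was at 302 CPM. H2-DMb2 was at 32.3 CPM in Apoe-/- phagocytic sample 3, and the next was at 16.7 CPM. Ciita was at 79.1 CPM in Apoe-/- non-phagocytic sample 6, and the next was at 40.6 CPM.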

How the results depend on the processing

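Fold changes here are log2. The direction of the sort effect in Apoe-/- cells held for every class II gene tested in each alternative run. With only the groups compared, and with H2-DMb1 and H2-DMb2 summed, 9 were tested, and otherwise all 10. Members called there numbered 1, and 4 with no filter on low counts (H2-Aa, H2-Ab1, H2-Eb1, H2-DMb2), 2 with DESeq2 (H2-DMb2, H2-Oa), 0 with H2-DMb1 and H2-DMb2 summed, 0 with limma on FPKM with a pseudocount of 0.1, and 0 to 1 with 1 library left out. In wild-type cells 0 were called, and 5 with no filter (H2-Aa, H2-Ab1, H2-Eb1, H2-DMb2, Ciita), 1 (H2-DMb2) with median-ratio size factors, without satellite genes, with Y-linked reads as a covariate and with DESeq2, and 0 to 1 with 1 library left out. Over all genes the counts called were 58 and 26, against 137 and 122 with no filter, 182 and 102 with DESeq2, 89 and 49 with the Y-linked covariate and 8 and 8 with FPKM and the pseudocount of 0.1 (26 in Apoe-/- cells with a pseudocount of 1). Between genotypes they were 4 in phagocytic and 2 in non-phagocytic cells, against 96 and 16 with no filter, and 24 in phagocytic cells with DESeq2. With 1 library left out they ranged over 18 (without Apoe-/- phagocytic 5) to 89 (without Apoe-/- phagocytic 2) for the sort in Apoe-/- cells, 13 (without wild-type non-phagocytic 3) to 64 (without wild-type non-phagocytic 4) for the sort in wild-type cells, and 3 to 23 (without Apoe-/- phagocytic 1, otherwise at most 6) between genotypes in phagocytic cells. No genotype comparison and no test of the difference called a member in any alternative. The causes were not tested.

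The replicate block gave 4 calls in Apoe-/- cells (H2-Aa, H2-Ab1, H2-DMa, H2-DMb2) and 1 in wild-type cells (H2-DMb2, -1.7, adjusted p = 0.0184), with 255 and 135 calls over all genes. Same-numbered samples correlated at 0.06 to 0.21 in Apoe-/- and 0.04 to 0.42 in wild-type cells, 5 of 6 and 2 of 5 correlated best with their own number, and 6 of 6 and 5 of 5 had Y-linked reads present or near absent alike in both sorts, which is a hint from the data. As neither the labels nor every correlation pairs them, the numbers were not taken as pairs. Under the block the genotype difference in the sort effect changed sign for Cd74 (-0.11), H2-Eb1 (-0.4) and H2-Oa (0.03).

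Left out together, an alternative chosen after seeing the data, wild-type non-phagocytic samples 4 and 5 turned the wild-type sort effect of Cd74 (0.29), H2-Ab1 (0.02) and H2-Aa (0). They turned the non-phagocytic genotype effect of H2-Aa (0.37), H2-Ab1 (0.4), H2-Eb1 (0.37), Cd74 (0.2), H2-DMb2 (0.35), H2-Oa (0.15), H2-Ob (0.16) and Ciita (0.59), and the genotype difference of H2-Eb1 (-1.28), Cd74 (-0.86), H2-DMb1 (-0.34), H2-Ob (-0.01) and Ciita (-1.12). Without Apoe-/- non-phagocytic samples 2 and 5, also chosen later, H2-DMb2 stayed called (-2.1, adjusted p = 0.0473).

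The other sign changes were in genotype effects and genotype differences, none of which was called. The genotype difference turned for H2-Eb1 (no filter -0.02, Y-linked covariate -0.03, FPKM -0.16 and -0.17), H2-DMb1 (length-scaled -0.01), H2-Ob (length-scaled -0.16, FPKM -0.08 and -0.1), H2-DMb2 (summed 0.06), H2-DMa (FPKM 0.03 and 0.02) and H2-Oa (FPKM 0.15). The genotype effect of H2-Ob turned in non-phagocytic (length-scaled 0.21, Y-linked 0.11) and phagocytic cells (FPKM -0.1 and -0.12). With 1 library left out the genotype difference ranged over -0.32 to 0.52 for Cd74, -0.63 to 0.27 for H2-Aa, -0.64 to 0.24 for H2-Ab1, -0.32 to 0.14 for H2-DMa, -0.24 to 0.22 for H2-DMb1, -0.44 to 0.19 for H2-DMb2, -0.57 to 0.39 for H2-Eb1, -0.76 to 0.2 for H2-Oa and -0.17 to 0.54 for H2-Ob. The genotype effect ranged over -0.82 to 0.07 for Ciita, -0.96 to 0 for H2-Oa and -0.2 to 0.5 for H2-Ob in phagocytic cells, and over -0.15 to 0.1 for H2-Ob in non-phagocytic cells. Of the 10 most alike genes, 6 were shared with Spearman's rank correlation and 7 with group means kept. Reads of H2-Oa, H2-Ob and Ciita were few, which limits their precision.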
